A study of Homo sapiens with 36 samples.

Results

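The genes described here were the inducible HSP70 genes and their partners: 10 genes of the 57500 gene IDs counted, chosen by name as targets of the heat shock response. Earlier results of these data were known at that choice, so counts of these genes against all genes are a description. They were HSPA1A, HSPA1B, HSPA6 and HSPA8 of the HSP70 family, the cochaperones HSPH1, DNAJB1, DNAJB5 and BAG3, the small heat shock protein gene HSPB1, and HSP90AA1. PolyA RNA was sequenced from FLO1 and OE33, human cell lines of esophageal adenocarcinoma, a cancer linked to reflux of acid and bile. Each line stably expressed a control shRNA (shControl) or an shRNA against APE1, the protein of APEX1 (shAPE1#1 or shAPE1#3). APE1 is an endonuclease of base excision repair and also a redox regulator of transcription factors. Exposure, written ABS, was a 20 min treatment with bile salts at 200 µM in acid of pH 4.0, followed by 6 h of recovery, and the remaining cells were left unexposed. FLO1 grew in DMEM and OE33 in RPMI1640, so line and medium cannot be told apart. Whether a stable line was 1 clone or a pool is not given in the sources used here. The 2 lines, 3 shRNAs and both exposures gave 12 groups of 3 libraries, 36 in all, which the labels call independent biological replicates.

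Heat shock proteins of the HSP70 family bind unfolded stretches of other proteins and release them with the hydrolysis of ATP. J-domain proteins (DNAJB1, DNAJB5) bring substrates and start the hydrolysis, nucleotide exchange factors (HSPH1, BAG3) end the cycle, and HSP90 takes over part of the clients. Stress that unfolds proteins frees the transcription factor HSF1, whose trimers bind heat shock elements, inverted repeats of the bases GAA, in the promoters of the inducible genes.

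The promoters are shown first because the genes differ in these repeats. They were read from RefSeq windows on GRCh38.p14, which reach from 250 bases before to 50 bases after each annotated transcript start, and all 10 genes matched by symbol, in 13 windows. The search covered GAANNTTC and TTCNNGAA (2 units; each reads the same on both strands) and the overlapping 3-unit forms GAANNTTCNNGAA and TTCNNGAANNTTC, which are each other's reverse complement. Of all 35116 windows in the table, 13.5% held a 2-unit and 0.490% a 3-unit form. Among the 10 genes, 7 had a 2-unit form in at least 1 window and 3 of these had a 3-unit form, namely HSPA6, HSPA8 and HSP90AA1. No form was found in the windows of HSPH1, DNAJB5 and BAG3, which says only that these letters are not in those windows. In the sequences below, capitals mark the matches. Each stretch lies before the RefSeq start of its own window and is given on the gene's strand. On the plus strand they are HSPA1A at chr6:31815314-31815463, HSPA1B at chr6:31827585-31827734 and HSPA6 at chr1:161524390-161524539. The DNAJB1 stretch, at chr19:14518421-14518570 (minus strand), belongs to window 2 of 3, with its RefSeq start at 14518397. It lies downstream of the RefSeq start of window 3 (14529271) and of the GENCODE gene start (14529770), so within the annotated gene. Exons of other transcripts cover parts of the windows of HSPA8 and HSP90AA1, so only short stretches around their matches are shown, from chr11:123062347-123062370 and chr11:123062173-123062196 for HSPA8 and from chr14:102087104-102087133 for HSP90AA1 (minus strand). The GENCODE gene starts of HSPA8 (123063230) and HSP90AA1 (102139699) likewise lie upstream of these stretches.
HSPA1A: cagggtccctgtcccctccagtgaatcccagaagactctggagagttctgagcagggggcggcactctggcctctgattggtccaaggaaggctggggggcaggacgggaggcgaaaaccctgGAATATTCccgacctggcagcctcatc
HSPA1B: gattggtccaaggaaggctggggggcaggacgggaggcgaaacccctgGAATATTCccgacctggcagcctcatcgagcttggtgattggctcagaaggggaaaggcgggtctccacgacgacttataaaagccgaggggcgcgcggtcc
HSPA6: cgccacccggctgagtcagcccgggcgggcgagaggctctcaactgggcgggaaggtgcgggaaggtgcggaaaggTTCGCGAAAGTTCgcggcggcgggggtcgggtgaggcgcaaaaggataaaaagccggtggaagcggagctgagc
DNAJB1: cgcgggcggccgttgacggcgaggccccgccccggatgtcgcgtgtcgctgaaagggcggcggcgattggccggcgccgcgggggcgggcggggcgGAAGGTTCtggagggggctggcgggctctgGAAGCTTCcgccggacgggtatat
HSPA8, distal: gcttGAAAGTTCCAGAAcgctgcg
HSPA8, proximal: gccccTTCTGGAAGGTTCtaagat
HSP90AA1: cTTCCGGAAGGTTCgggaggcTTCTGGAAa

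Distances are from the RefSeq starts; the HSPA1A stretch ends earlier, just before a start that GENCODE 29 places upstream. HSPA1A and HSPA1B carried the same 8 letters, 106 and 105 bases before their RefSeq starts, and their windows were identical at 277 of 299 aligned bases (92.6%). HSPA6 had a 3-unit form that began 74 bases before the start, and HSPA8 had 2, at 230 and 55 bases. A match is a description of the letters and not of binding by HSF1. The genes with a 3-unit form did not move alike in the data below: HSPA6 changed most after ABS in FLO1, HSPA8 fell in both lines, and HSP90AA1 did not pass the test for ABS in either.

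**Figure D1:**
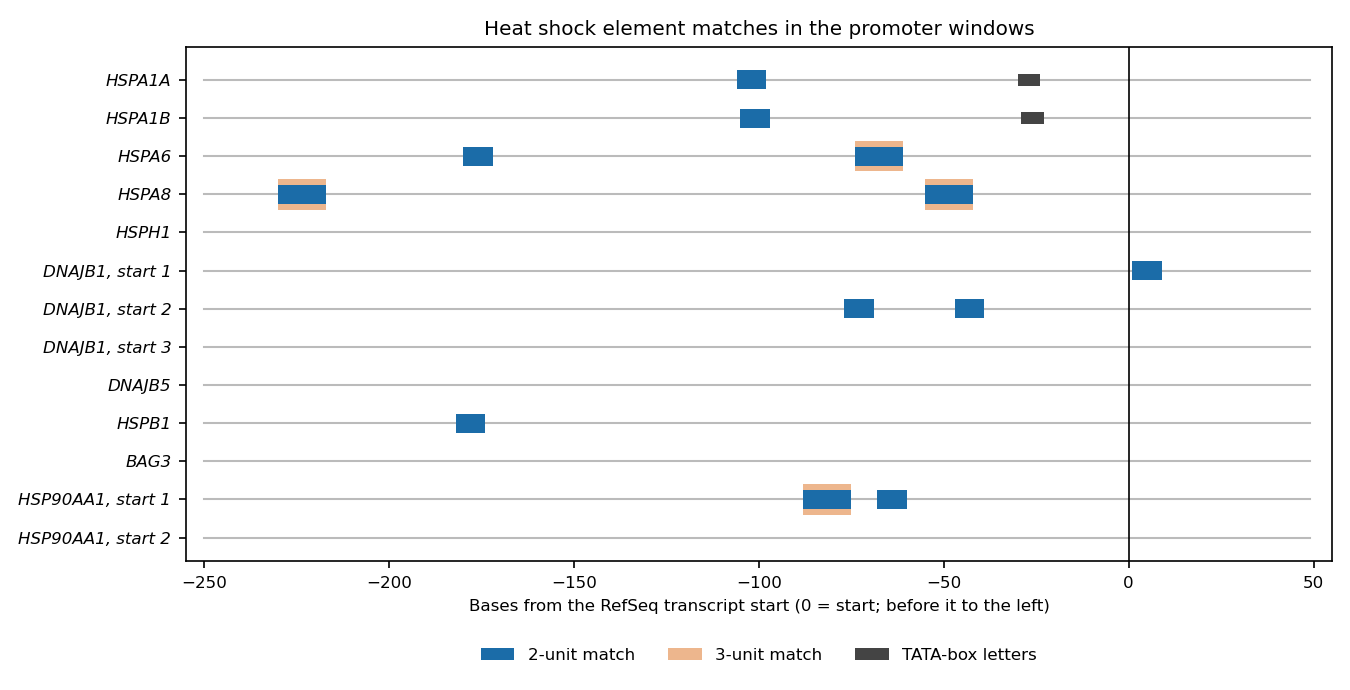
Positions of heat shock element letters in the 13 RefSeq windows of the 10 genes, in bases from the transcript start (x axis); blue boxes are 2-unit forms, orange boxes behind them 3-unit forms, and dark boxes the TATA-box letters TATAAA. HSPA6, HSPA8 and the first HSP90AA1 window hold 3-unit forms, while HSPH1, DNAJB5 and BAG3 hold none.

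Library totals were 20.7 to 40.7 M counts (M, 1e6). APEX1 fell in every shAPE1 group, by 2.42 to 3.14 on the log2 scale (edgeR quasi-likelihood test with Benjamini-Hochberg adjustment over all genes, as for every adjusted p below). Of 7 epithelial markers, OE33 had all at medians of 212 CPM (counts per 1e6 counts) or more, whereas FLO1 had KRT8 at a median of 1639 CPM and KRT18 at 1139.8 CPM but EPCAM at 0.710 CPM and CLDN7 at 0.479 CPM. Summed fibroblast markers reached 20.6 CPM in OE33 shControl ABS replicate 3, against 2.49 to 5.15 CPM in the other 17 OE33 libraries. Of these markers DCN, LUM and PDGFRB were under 1 CPM in every OE33 library, so the high sum came from collagen genes. In the FLO1 libraries the same sum was 18.7 to 37.1 CPM, mostly of COL1A1 (median 23.7 CPM). Genes at 20 CPM or more in every FLO1 library and at a median under 0.1 CPM in OE33 numbered 67. Summed, they stood at no more than 0.218% of their FLO1 level in any OE33 library. For the reverse, with 44 genes, the highest share was 0.269%. The low median was part of the choice of genes, so a low share in the typical library was fixed by it. FLO1 shControl ABS replicate 2 leaned most towards genes rich in G and C: its deviations correlated with gene G+C share at 0.82 across genes, against -0.60 to 0.72 in the other 35 libraries (genes are not independent replicates). The column of FLO1 shAPE1#3 ABS replicate 3 has an extra suffix and a serial number out of run, and was used as named.

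Per kb of exon, HSPA8, HSP90AA1 and HSPB1 stood highest of the 10 genes in unexposed shControl cells of both lines. In unexposed FLO1 shControl libraries HSPA8, the constitutive HSP70, stood at 536 ± 10.4 CPM per kb (mean ± SD, n = 3 libraries, as for all levels below), HSP90AA1 at 328 ± 31.4 and HSPB1 at 293 ± 26.1 CPM per kb. The neighbours HSP90AA1 and HSPB1 differed by about the size of their spread. The other genes followed at lower levels per kb, with BAG3 at 53.0 ± 2.88, HSPA1A at 46.0 ± 2.14, DNAJB1 at 33.2 ± 2.36, HSPA1B at 21.3 ± 2.19, HSPH1 at 15.9 ± 1.70, DNAJB5 at 2.36 ± 0.068 and HSPA6 at 0.550 ± 0.138 CPM per kb. After ABS in the same cells HSPA1A stood among the highest genes on this scale, at 338 ± 18.2 CPM per kb. HSPB1 was then at 421 ± 85.5, HSPA8 at 416 ± 18.7 and HSP90AA1 at 333 ± 82.3 CPM per kb. The order depends on the length used, here all exons merged. Merged exons exceed the longest coding transcript for HSPA8 (4849 against 2463 bases), HSP90AA1 (5248 against 3510) and HSPB1 (1634 against 909). For HSPA1A both are 2483 bases, so a transcript length would place it further below those genes. HSPB1 and HSPA8 differed by less than their spread, as did HSPA1A and HSP90AA1, whereas every HSPA8 library was above every HSPA1A library. Unexposed OE33 shControl libraries had the order HSPA8 (570.1 ± 6.76 CPM per kb), HSP90AA1 (448 ± 23.7), HSPB1 (254 ± 14.3), HSPA1A (128 ± 1.08) and HSPA1B (122 ± 3.04), with DNAJB5 last at 0.243 ± 0.052 CPM per kb. The 10 genes together held 5383 ± 151 CPM in unexposed FLO1 shControl libraries and 6817 ± 410.3 CPM after ABS, and 6988 ± 107 and 5663 ± 94.7 CPM in OE33. Of the FLO1 sum, HSPA1A and HSPA1B took 2.13% and 0.998% unexposed and 12.4% and 5.22% after ABS.

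**Figure D2:**
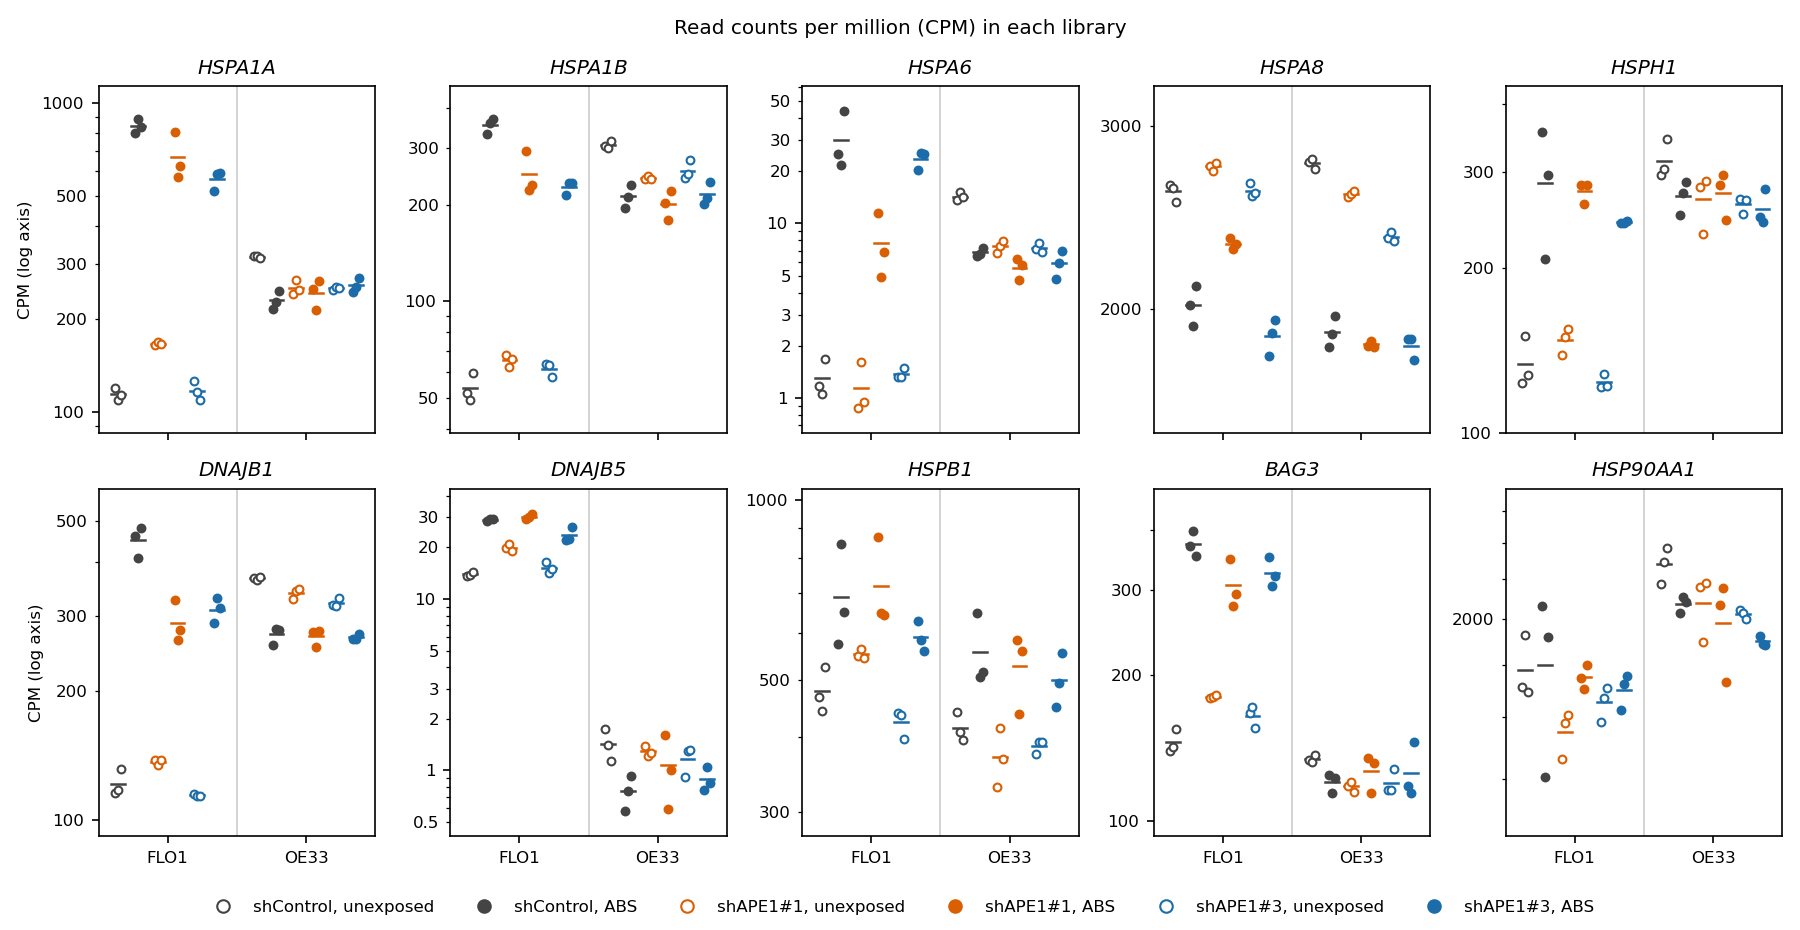
Level of each gene in CPM (y axis, log scale) in each of the 36 libraries, in FLO1 (left of each panel) and OE33 (right). Open points are unexposed and filled points ABS libraries, colours are shRNAs, and bars are means of 3 libraries. HSPA1A rises in FLO1 shControl from 114 to 838 CPM and falls in OE33 shControl from 318 to 229.6 CPM.

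In FLO1 shControl cells ABS raised the inducible HSP70 genes and most of the cochaperones. Of the 10 genes 7 rose and 1 fell, against 3.00% of all 16868 genes tested that were called in either direction (2.48% higher, 0.516% lower). The median log2 change of the 10 was 1.18, and that of all genes tested -0.01. Without exposed replicate 2 the same 8 genes were called, while the calls over all genes went from 506 to 923; the log2 changes were then 2.76 for HSPA1A, 2.63 for HSPA1B, 4.65 for HSPA6, -0.41 for HSPA8, 1.21 for HSPH1, 1.87 for DNAJB1, 0.98 for DNAJB5 and 1.24 for BAG3. In bulk RNA, a larger share of responding cells and more RNA per cell cannot be told apart.

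HSPA1A, the main stress-inducible HSP70, stood at 119.9, 109 and 114 CPM unexposed and at 796, 886 and 833 CPM after ABS. Its near-copy HSPA1B stood at 51.7, 49.3 and 59.8 CPM and then at 333, 361 and 369 CPM. HSPA6, which is barely transcribed without stress, went from 1.18, 1.06 and 1.67 CPM to 25.1, 21.7 and 43.8 CPM. In none of the 3 genes did the exposed and unexposed libraries overlap, and within the exposed HSPA6 libraries replicate 3 was well above the other two. The log2 changes were 2.83 ± 0.12 (SE) for HSPA1A, a 7.10-fold rise (adjusted p = 1.16e-12), 2.68 ± 0.11 for HSPA1B (adjusted p = 1.16e-12) and 4.49 ± 0.31 for HSPA6, a 22.4-fold rise (adjusted p = 4.22e-09). By size of log2 change HSPA6 was 3rd, HSPA1A 26th and HSPA1B 33rd from the top of 16868 genes. HSPA8, the HSP70 that cells make without stress, moved the other way, from 2634, 2619 and 2540.3 CPM to 2019.7, 1927 and 2108 CPM. Every exposed library was below every unexposed one, and the log2 change was -0.41 ± 0.07 (adjusted p = 9.62e-04); a fit of only these 6 libraries did not call it (adjusted p = 0.149).

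Among the cochaperones, DNAJB1, the J-domain partner of inducible HSP70, stood at 116, 118 and 132 CPM unexposed and 460.2, 408 and 480.3 CPM after ABS, a log2 change of 1.83 ± 0.09 (adjusted p = 2.70e-11). BAG3, an exchange factor that links HSP70 to selective autophagy, stood at 139.7, 142 and 155 CPM and then at 371, 398 and 354 CPM (1.31 ± 0.10, adjusted p = 6.68e-09). The groups did not overlap in either gene. DNAJB5, another J-domain gene, went from 13.6, 13.7 and 14.4 CPM to 28.4, 29.4 and 29.3 CPM (1.01 ± 0.10, adjusted p = 5.53e-07), with close replicates. HSPH1, the HSP110 exchange factor, went from 123, 149.99 and 128 CPM to 355, 208 and 296 CPM (1.04 ± 0.11, adjusted p = 3.65e-06). Its exposed replicate 2, the library with the G+C trend, was the lowest of the exposed libraries and still above all unexposed ones. HSPH1 had the lowest G+C share of the 10 genes (39.3%) and HSPB1 the highest (63.6%).

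HSPB1 and HSP90AA1 did not pass the main test. HSPB1, the small heat shock protein HSP27, stood at 468, 442 and 526 CPM unexposed and 573, 844 and 649 CPM after ABS; the groups did not overlap, but replicate 2 was far above the other exposed libraries and the log2 change was 0.48 ± 0.14 (adjusted p = 0.0584). DESeq2 called HSPB1 (adjusted p = 0.022), as did edgeR with no filter on low counts (adjusted p = 5.91e-05), without exposed replicate 1 (0.62, adjusted p = 0.00411) and with a G+C correction of the counts, an alternative chosen after seeing the data (0.40, adjusted p = 4.10e-05). Without exposed replicate 2 it was 0.27 (adjusted p = 0.128). HSP90AA1, the stress-regulated HSP90, stood at 1640.0, 1912 and 1616 CPM and 2081, 1259 and 1901 CPM. Its groups overlapped, with exposed replicate 2 the lowest of all, and the log2 change was -0.04 ± 0.11 (adjusted p = 0.918). Without that replicate it was 0.13 (adjusted p = 0.366).

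The FLO1 shAPE1 cells showed the same calls after ABS. With shAPE1#1, 7 of the 10 genes rose and 1 fell (5.01% of all genes called), and with shAPE1#3 again 7 rose and 1 fell (1.81% called). In both, the genes that rose were HSPA1A, HSPA1B, HSPA6, HSPH1, DNAJB1, DNAJB5 and BAG3, and the one that fell was HSPA8. HSPA1A reached 804, 575 and 625 CPM with shAPE1#1 and 517, 588 and 591 CPM with shAPE1#3, log2 changes of 1.99 ± 0.11 and 2.23 ± 0.11. HSPA6 reached 11.4, 4.95 and 6.87 CPM and 20.2, 25.3 and 24.9 CPM (2.73 ± 0.33 and 4.05 ± 0.30). The shAPE1#1 libraries were thus the lowest of the exposed FLO1 libraries for HSPA6, with no overlap with either other shRNA. The log2 change of DNAJB1 was 1.05 ± 0.09 with shAPE1#1 and 1.40 ± 0.09 with shAPE1#3, and that of BAG3 0.75 ± 0.09 and 0.94 ± 0.09. HSPB1 (0.36 ± 0.14 and 0.43 ± 0.14) and HSP90AA1 (0.21 ± 0.11 and 0.01 ± 0.11) did not pass with either shRNA. HSPB1 was called with both when no filter was used (adjusted p = 0.00356 and 8.12e-04), with the G+C correction (adjusted p = 1.19e-05 and 7.90e-05) and in a fit of only the groups compared (adjusted p = 0.0436 and 4.57e-04), which also called HSP90AA1 with shAPE1#1 (adjusted p = 0.0227). The fall of HSPA8 with shAPE1#1 (-0.27 ± 0.07, adjusted p = 0.0293) was lost when any 1 of its 6 libraries was left out (adjusted p from 0.0508 to 0.112).

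**Figure D3:**
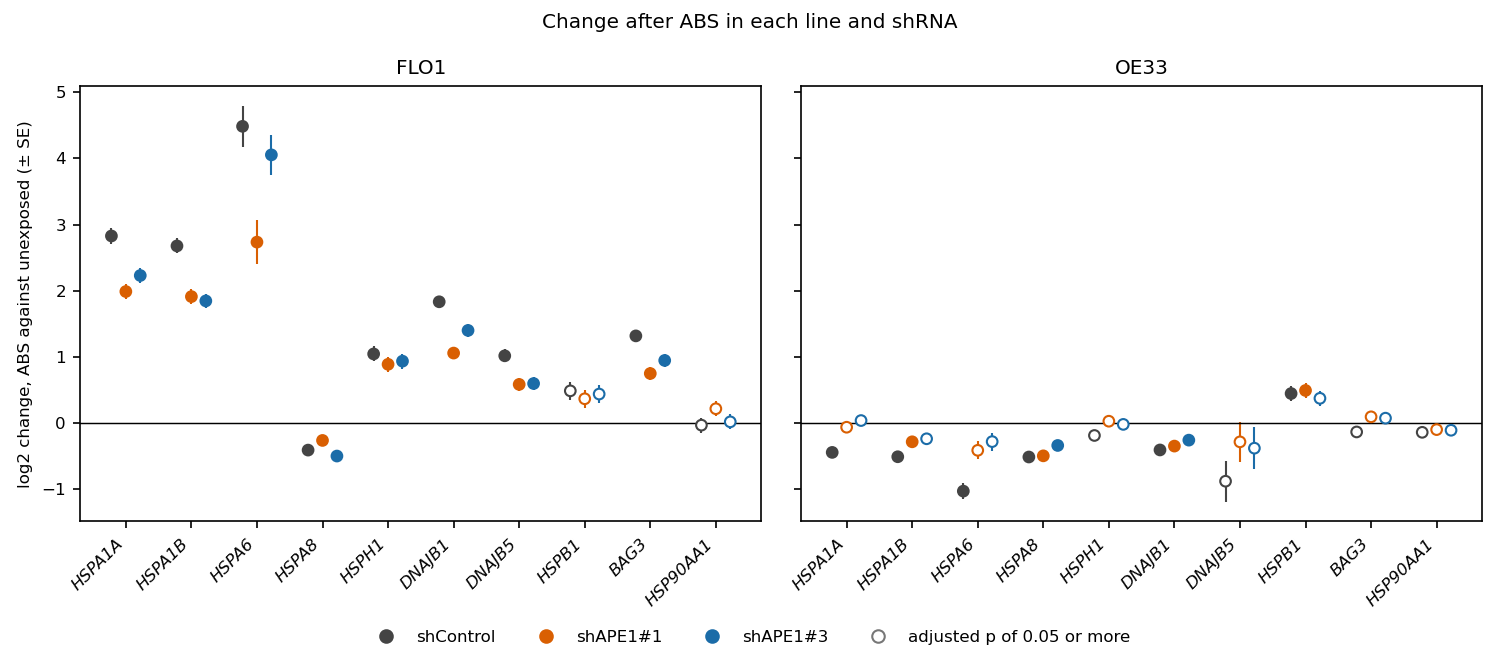
Log2 change after ABS (y axis, ± SE, 3 against 3 libraries) of the 10 genes in FLO1 and OE33, coloured by shRNA; filled points passed an adjusted p of 0.05. In FLO1 shControl HSPA6 lies at 4.49 and HSPA1A at 2.83, and in OE33 shControl both lie below 0, at -1.04 and -0.45.

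OE33 shControl cells showed no rise of the inducible HSP70 genes after 6 h of recovery, the only time sampled. Earlier times were not measured in either line. Of the 10 genes 1 rose and 5 fell after ABS, against 8.40% of 15540 genes called (5.89% higher, 2.51% lower). The median log2 change of the 10 was -0.43, and that of all genes tested close to 0 (-0.005).

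HSPA1A stood at 319, 320.4 and 315 CPM unexposed and 216, 227 and 246 CPM after ABS, and HSPA1B at 306, 302 and 317 CPM and 196, 211 and 230.4 CPM. HSPA6 went from 13.6, 15.1 and 14.1 CPM to 6.56, 6.72 and 7.26 CPM. In all 3 genes every exposed library lay below every unexposed one. The log2 changes were -0.45 ± 0.08 (adjusted p = 4.28e-04), -0.51 ± 0.08 (adjusted p = 1.43e-04) and -1.04 ± 0.13 (adjusted p = 6.31e-06). HSPA8 fell from 2775, 2790.0 and 2727 CPM to 1841, 1892 and 1971 CPM (-0.52 ± 0.06, adjusted p = 8.79e-07), and DNAJB1 from 368, 363 and 369 CPM to 257, 279 and 278 CPM (-0.41 ± 0.06, adjusted p = 7.44e-05). The groups of HSPA8 and DNAJB1 did not overlap either. Without exposed replicate 3, the library with the collagen counts, the same 6 genes were called, with log2 changes of -0.50 for HSPA1A, -0.57 for HSPA1B, -1.08 for HSPA6, -0.54 for HSPA8, -0.43 for DNAJB1 and 0.50 for HSPB1; the calls over all genes went from 1306 to 759.

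HSPB1 was the gene that rose, from 441, 408 and 396 CPM to 647, 505 and 515 CPM, with replicate 1 above the others (0.44 ± 0.11, adjusted p = 0.0132). Without that exposed replicate the change of HSPB1 was 0.32 and was not called (adjusted p = 0.101), and the call was also lost without unexposed replicate 2 (adjusted p = 0.0514) or 3 (adjusted p = 0.0651). HSPH1 (-0.19 ± 0.08, adjusted p = 0.142), BAG3 (-0.14 ± 0.08) and HSP90AA1 (-0.15 ± 0.08) did not pass the test. Their exposed libraries lay below all unexposed ones. The share of all genes separated in this way was not counted, so no fall is read from it. DNAJB5 is scarcely expressed in OE33, at 1.75, 1.41 and 1.13 CPM unexposed and 0.582, 0.762 and 0.931 CPM after ABS (-0.89 ± 0.31, adjusted p = 0.0805). With shAPE1#1, 1 of the 10 genes rose and 3 fell after ABS (4.73% of all genes called): HSPB1 rose (0.49 ± 0.11), and HSPA1B (-0.29 ± 0.08), HSPA8 (-0.50 ± 0.06) and DNAJB1 (-0.35 ± 0.06) fell. Of these, HSPA8 alone was called in a fit of only the groups compared (adjusted p = 0.127 for HSPB1, 0.247 for HSPA1B and 0.11 for DNAJB1), and leaving out 1 library left 2 or 3 of the calls, with 248 to 1023 genes called in all against 735. With shAPE1#3, 2 fell (2.26% called), HSPA8 (-0.34 ± 0.06) and DNAJB1 (-0.26 ± 0.06). The call of DNAJB1 was lost when any library but exposed replicate 2 was left out (adjusted p from 0.0613 to 0.0833). HSPB1, at 0.37 ± 0.11 (adjusted p = 0.084), was called by DESeq2 (adjusted p = 0.0342), with no filter (adjusted p = 6.64e-05), with the G+C correction (adjusted p = 0.0166) and in a fit of only the groups compared (adjusted p = 0.00441). HSPA1A did not pass in either, at -0.07 ± 0.08 with shAPE1#1 and 0.03 ± 0.08 with shAPE1#3.

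For HSPA1A, HSPA1B, HSPA6 and DNAJB1 the lines stood in the opposite order after ABS. In unexposed shControl cells 8 of the 10 genes differed between OE33 and FLO1, against 77.6% of 18199 genes called, a share so large that the count says little about these genes. HSPA6 was higher in OE33 by 3.59 ± 0.26 on the log2 scale, HSPA1B by 2.65 ± 0.11, DNAJB1 by 1.72 ± 0.08, HSPA1A by 1.61 ± 0.10, HSPH1 by 1.37 ± 0.10, HSP90AA1 by 0.58 ± 0.10 and HSPA8 by 0.22 ± 0.06. DNAJB5 was lower in OE33, at a log2 difference of -3.15 ± 0.17, and BAG3 (0.02 ± 0.09) and HSPB1 (-0.07 ± 0.13) did not pass. After ABS the mean CPM in FLO1 shControl libraries was 4.41 times that in OE33 for HSPA6, 3.65 times for HSPA1A, 3.11 times for BAG3, 1.67 times for HSPA1B, 1.66 times for DNAJB1 and 38.3 times for DNAJB5, with no overlap between the libraries of the lines. The share of all genes separated in this way was not counted, so the separation says little about these genes. CPM is per total count, whereas the tests also scale each library by a TMM factor. That factor was 1.01 to 1.11 in these FLO1 libraries and 0.933 to 0.948 in the OE33 ones, so TMM-scaled ratios would be smaller. In CPM the exposed libraries of the lines overlapped for HSPA8, HSPH1, HSPB1 and HSP90AA1. With the TMM factors HSP90AA1 did not overlap, at 1867, 1243 and 1766 in FLO1 and 2153, 2254 and 2258.5 in OE33. These ratios of exposed levels are a description and were not tested.

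The test of the difference between lines in the ABS change called 7 of the 10 genes lower in OE33 in shControl cells (1.73% of all genes called). The differences in log2 change, OE33 minus FLO1, were -5.53 ± 0.34 for HSPA6, -3.29 ± 0.14 for HSPA1A, -3.20 ± 0.14 for HSPA1B, -2.25 ± 0.11 for DNAJB1, -1.90 ± 0.27 for DNAJB5, -1.46 ± 0.13 for BAG3 and -1.24 ± 0.14 for HSPH1. HSPA8 (-0.11 ± 0.08), HSPB1 (-0.05 ± 0.19) and HSP90AA1 (-0.11 ± 0.14) did not pass. The same 7 were called without FLO1 shControl ABS replicate 2, with HSPA6 at -5.67, HSPA1A at -3.19 and HSPH1 at -1.38, and without OE33 shControl ABS replicate 3, with HSPA6 at -5.56, HSPA1A at -3.33 and HSPH1 at -1.28. The calls over all genes went from 315 to 887 and 202. In shAPE1#1 cells the same 7 genes were called lower (4.86% called) and in shAPE1#3 cells 6 of them (0.665% called), without DNAJB5 (-0.98 ± 0.28, adjusted p = 0.11), which DESeq2 (adjusted p = 0.02) and the G+C correction (adjusted p = 0.035) called. HSPA6 differed by -3.17 ± 0.36 in shAPE1#1 and -4.35 ± 0.34 in shAPE1#3 cells, and HSPA1A by -2.07 ± 0.14 and -2.20 ± 0.14. The call of DNAJB5 in shAPE1#1 cells (-0.89 ± 0.26, adjusted p = 0.0435) was lost with RLE normalization (adjusted p = 0.0539), with a replicate block (adjusted p = 0.0671), in a fit of only the groups compared (adjusted p = 0.0728) and when any of 11 of the 12 libraries was left out (adjusted p from 0.0576 to 0.154).

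The shAPE1 groups were next set against shControl in the same state; both shRNAs share the shControl libraries, so their values are given side by side. In unexposed FLO1 cells 2 of the 10 genes differed with shAPE1#1 (6.74% of all genes called) and none with shAPE1#3 (0.788% called; 0 of the 10 at an unadjusted p under 0.05, and 0 by DESeq2). No gene was called with both (0.0711% of all genes were). HSPA1A was higher with shAPE1#1, at 165, 169 and 165 CPM against 119.9, 109 and 114 CPM (0.53 ± 0.11, adjusted p = 0.00403), and stood at 126, 116 and 109 CPM with shAPE1#3 (0.02 ± 0.11). DNAJB5 was also higher with shAPE1#1 (0.51 ± 0.10; shAPE1#3 0.12 ± 0.10). HSPA6, the gene with the fewest counts here, was at -0.18 ± 0.41 and 0.07 ± 0.39.

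After ABS several of the induced genes stood lower in FLO1 shAPE1 cells than in exposed shControl cells. With shAPE1#1, 1 of the 10 genes was higher and 3 were lower (16.6% of all genes called), and with shAPE1#3, 3 were lower (0.783% called). HSPA1B and DNAJB1 were lower with both (0.142% of all genes were called with both). DNAJB1 stood at 326, 263 and 277 CPM with shAPE1#1 and 288, 329.8 and 312 CPM with shAPE1#3, against 460.2, 408 and 480.3 CPM in shControl, and neither group overlapped it. The log2 differences were -0.62 ± 0.09 and -0.54 ± 0.09 (adjusted p = 9.20e-05 and 0.00292). HSPA1B stood at 295, 222 and 230.4 CPM and 214, 234 and 234 CPM, against 333, 361 and 369 CPM (-0.49 ± 0.11 and -0.65 ± 0.11, adjusted p = 0.00389 and 0.00267), again without overlap. HSPA1A passed with shAPE1#3 (-0.58 ± 0.11, adjusted p = 0.00906) and not with shAPE1#1 (-0.31 ± 0.11, adjusted p = 0.0585), where replicate 1 overlapped the shControl libraries. With shAPE1#1 it was called by DESeq2 (adjusted p = 0.029), with no filter (adjusted p = 0.0353), with HSPA1A and HSPA1B summed (-0.36, adjusted p = 0.0253), and without replicate 1 of either exposed group (adjusted p = 0.0191 for shControl and 0.00438 for shAPE1#1). HSPA6 passed with shAPE1#1 (-1.94 ± 0.25, adjusted p = 1.98e-05) and not with shAPE1#3 (-0.37 ± 0.23). HSPA8 was higher with shAPE1#1 (0.22 ± 0.07, adjusted p = 0.0366), a call lost with a replicate block (adjusted p = 0.0649) and without shControl ABS replicate 1 or any 1 of the shAPE1#1 libraries (adjusted p from 0.0628 to 0.0773). A fit of only the 6 libraries compared called none of the 10 with shAPE1#3, and with shAPE1#1 it left out HSPA1B (adjusted p = 0.108) and HSPA8 (adjusted p = 0.316). With shAPE1#3, leaving out shControl ABS replicate 2 took the calls over all genes from 132 to 1126 and added HSPH1 (-0.40) and HSP90AA1 (-0.27) to the 3.

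Whether the ABS change itself differed between shAPE1 and shControl cells was tested as an interaction. In FLO1 with shAPE1#1, edgeR called 0 of the 10 genes (0% of all genes called), 6 of the 10 had an unadjusted p under 0.05, as did 1615 of all 16868 genes, and DESeq2 called 5, of 30 over all genes. With shAPE1#3, edgeR called 0 (again 0% of all genes), 5 had an unadjusted p under 0.05 (341 of all genes), and DESeq2 called 1, the one gene it called over all. The ABS change with shAPE1#1 minus that in shControl was -0.84 ± 0.16 for HSPA1A and -0.78 ± 0.13 for DNAJB1 (adjusted p = 0.067 for each), -0.77 ± 0.15 for HSPA1B (adjusted p = 0.122), -0.57 ± 0.13 for BAG3 and -1.75 ± 0.48 for HSPA6. With shAPE1#3 the values were -0.60 ± 0.16 for HSPA1A, -0.43 ± 0.13 for DNAJB1, -0.83 ± 0.15 for HSPA1B (adjusted p = 0.359), -0.37 ± 0.13 for BAG3 and -0.43 ± 0.45 for HSPA6. DESeq2 called HSPA1A, HSPA1B, HSPA6, DNAJB1 and BAG3 with shAPE1#1 and HSPA1B with shAPE1#3. Without shControl ABS replicate 2, edgeR called HSPA1A (-0.76, adjusted p = 0.0143), HSPA1B (-0.71, adjusted p = 0.0286) and DNAJB1 (-0.80, adjusted p = 0.00149) with shAPE1#1. The same 3 were called without shAPE1#1 ABS replicate 1 (adjusted p = 0.00411, 0.0112 and 0.00411) and without shControl ABS replicate 1 (adjusted p = 0.0386, 0.0386 and 0.0386), and the G+C correction of all libraries added BAG3 and HSPH1 to them. Leaving out any other of the 12 libraries gave 0 of the 10 with shAPE1#1. For shAPE1#3, leaving out any 1 of the 12 gave 0.

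In unexposed OE33 cells the inducible HSP70 genes stood lower with either shRNA, and no gene of the 10 passed after ABS. Unexposed, 4 of the 10 genes were lower with shAPE1#1 (16.4% of all genes called) and 6 with shAPE1#3 (21.7% called), and 4 with both, HSPA1A, HSPA1B, HSPA6 and HSPH1 (12.9% of all genes were called with both). HSPA6 stood at 6.77, 7.46 and 7.96 CPM with shAPE1#1 and 7.12, 7.77 and 6.83 CPM with shAPE1#3, against 13.6, 15.1 and 14.1 CPM in shControl. The groups did not overlap, and the log2 differences were -0.95 ± 0.13 and -0.96 ± 0.13 (adjusted p = 5.22e-06 and 5.63e-06). HSPA1A stood at 241, 267 and 247 CPM and 248, 255 and 252 CPM, against 319, 320.4 and 315 CPM (-0.34 ± 0.08 and -0.32 ± 0.08). HSPA1B was at -0.34 ± 0.08 and -0.25 ± 0.08 and HSPH1 at -0.24 ± 0.08 and -0.24 ± 0.08 on the same scale. HSPA8 (-0.22 ± 0.06) and DNAJB1 (-0.17 ± 0.06) passed with shAPE1#3 alone, at -0.10 ± 0.06 and -0.11 ± 0.06 with shAPE1#1; that difference between shRNAs was not tested. Leaving out any 1 of the 6 libraries brought the 6 calls with shAPE1#3 down to 3 or 4, and HSPA1A, HSPA6 and HSPA8 were called each time.

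After ABS in OE33, edgeR called 0 of the 10 genes with shAPE1#1 (15.8% of all genes called) and 0 with shAPE1#3 (18.1% called), and none with both (12.4%). Of the 10, 1 and 2 had an unadjusted p under 0.05, and DESeq2 called 0 in each. HSPA1A stood at 250.0, 215 and 265 CPM, 245, 254 and 272 CPM and, in shControl, 216, 227 and 246 CPM; the 3 groups overlapped. The interaction likewise gave 0 of the 10 with shAPE1#1 (0% of all genes called; 2 of the 10 and 557 of all genes at an unadjusted p under 0.05; 0 of the 10 and 11 of all by DESeq2) and 0 with shAPE1#3 (0.0129% called; 4 of the 10 and 617 of all genes at an unadjusted p under 0.05; 1 and 15 by DESeq2). For HSPA1A it was 0.38 ± 0.11 with shAPE1#1 and 0.48 ± 0.11 with shAPE1#3 (adjusted p = 0.294), and for HSPA6 0.62 ± 0.19 and 0.75 ± 0.19. The gene that DESeq2 called with shAPE1#3 was HSPA1A (adjusted p = 0.0403).

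**Figure D4:**
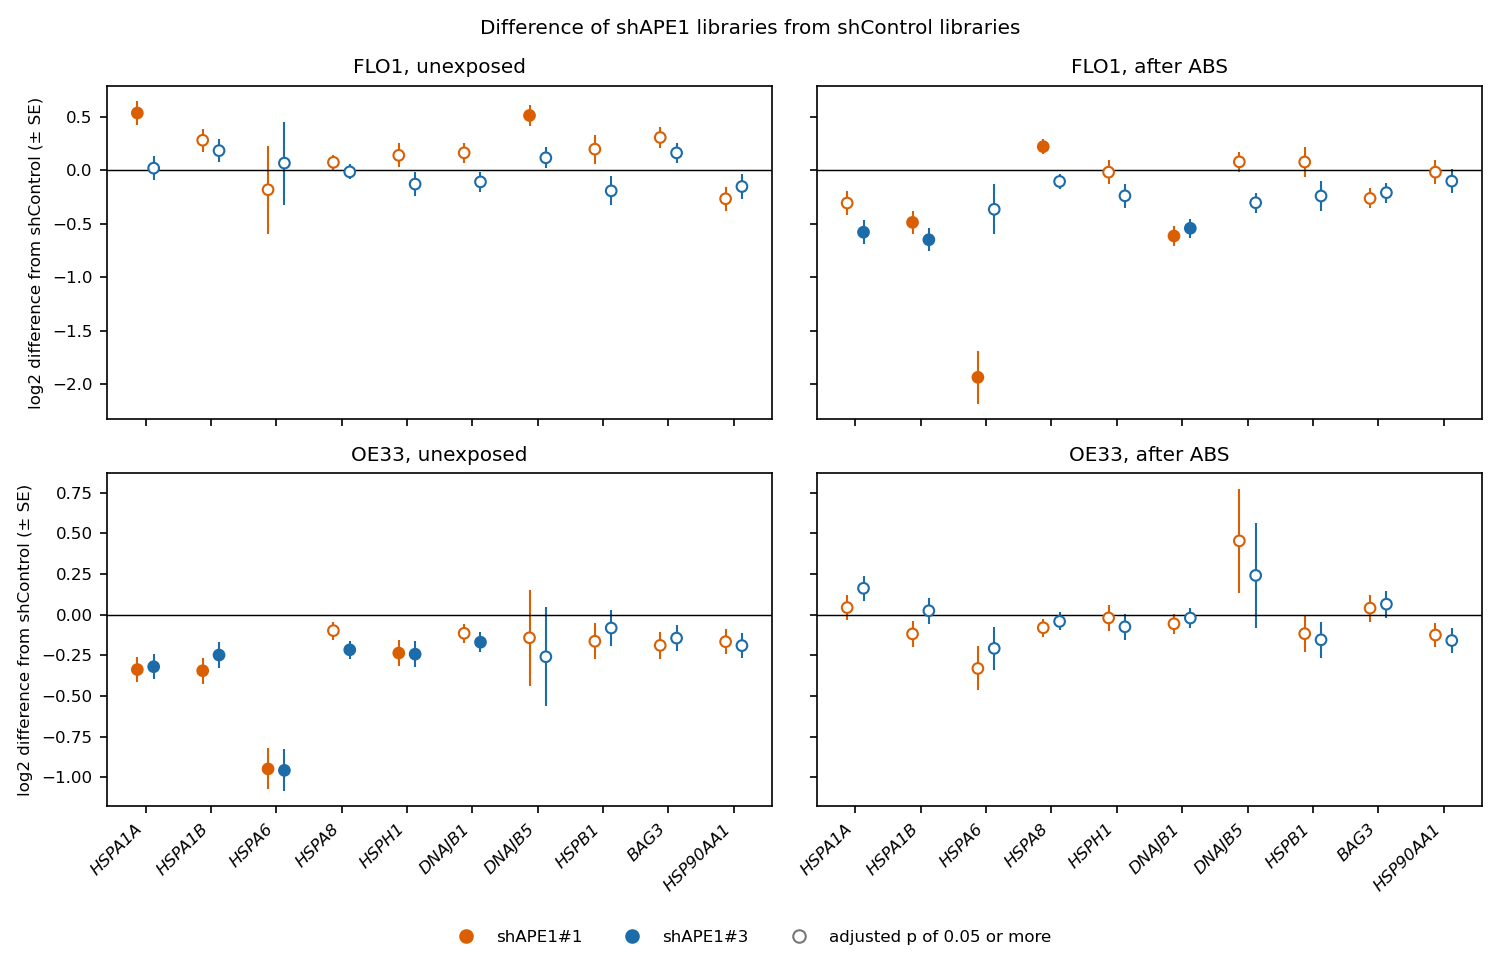
Log2 difference of shAPE1 from shControl libraries (y axis, ± SE, 3 against 3 libraries) for the 10 genes, in FLO1 (top) and OE33 (bottom), unexposed (left) and after ABS (right); filled points passed an adjusted p of 0.05. DNAJB1 lies at -0.62 and -0.54 in exposed FLO1 cells, and HSPA6 at -0.95 and -0.96 in unexposed OE33 cells.

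HSPA1A and HSPA1B share most of their sequence: of the 100-base windows of the HSPA1A transcript 69.9% occur elsewhere in the annotated transcripts, and of those of HSPA1B 72.7%, so the counting may split their reads. HSPA6 shares 27.6% of its windows with HSPA7, and HSPB1 and HSP90AA1 share 5.06% and 4.63% with other transcripts; the other 5 genes share none. HSPA1A took 69.9, 68.9 and 65.5% of the summed counts of the pair in unexposed FLO1 shControl libraries (68.1% ± 2.30) and 70.5, 71.1 and 69.3% after ABS (70.3% ± 0.898). In OE33 shControl it took 51.0, 51.5 and 49.9% (50.8% ± 0.830) and 52.5, 51.8 and 51.7% (52.0% ± 0.443). Every FLO1 library was above every OE33 library. Within shAPE1#3 the share went from 65.5% ± 0.829 to 71.3% ± 0.502 after ABS in FLO1 and from 49.6% ± 1.62 to 54.4% ± 0.760 in OE33, without overlap; these shares were not tested. With both genes summed to 1 row, the fall in OE33 shAPE1#1 cells after ABS, called for HSPA1B alone, was -0.17 and did not pass (adjusted p = 0.201).

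**Figure D5:**
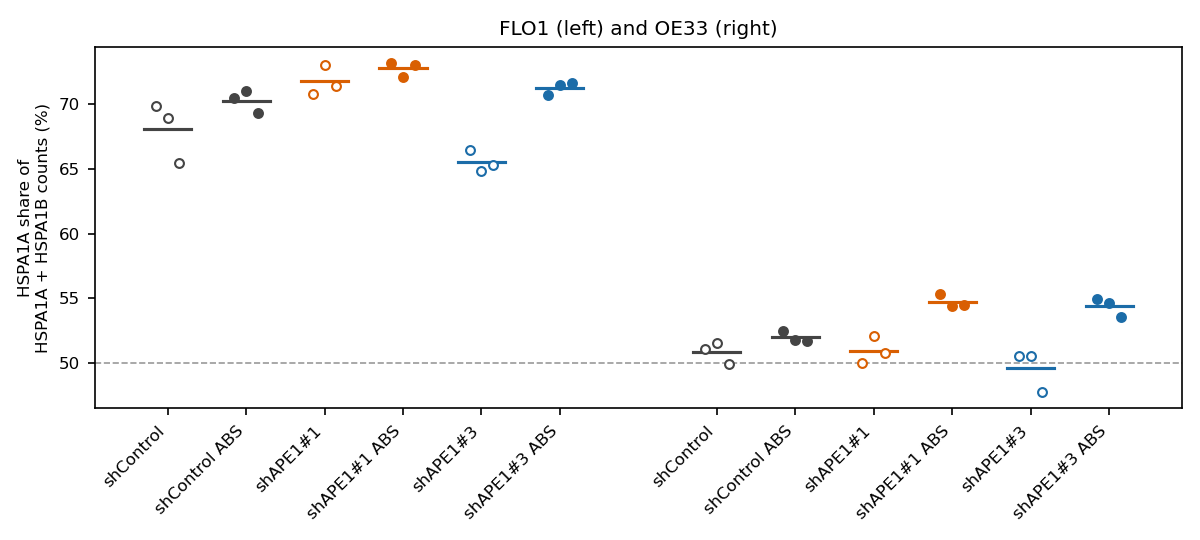
HSPA1A share of the summed HSPA1A and HSPA1B counts (y axis, %; it does not start at 0) in each library, by group; open points are unexposed, filled points ABS, and bars means of 3 libraries. FLO1 libraries lie on the left and OE33 libraries on the right, and the shares span 47.7 to 73.2%.

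Other genes of the chaperone network were read from 5 lists of 62 genes, against the share of all genes called after ABS, which was 3.00% in FLO1 shControl cells (2.48% higher) and 8.40% in OE33 shControl cells (5.89% higher, 2.51% lower). Several of the counts lie near that share. In FLO1 shControl cells ABS raised 3 of 23 other HSF1-responsive chaperones and cochaperones and lowered none. Among those that rose were CRYAB, a small heat shock protein (1.75 ± 0.44), and ZFAND2A, which acts at the proteasome (1.11 ± 0.13). The median log2 change of the 23 was 0.13. edgeR called 0 of 5 heat shock factors and regulators (1 at an unadjusted p under 0.05, 0 by DESeq2); the most abundant per kb were HSF1, the factor itself (0.16 ± 0.14), and its binding protein gene HSBP1 (-0.23 ± 0.13). It also called 0 of 8 subunits of the TRiC chaperonin, which folds actin and tubulin (1 at an unadjusted p under 0.05, 0 by DESeq2), with CCT5 at -0.16 ± 0.08 and CCT3 at -0.13 ± 0.08 the most abundant. Of 9 other HSP70 family genes 3 rose: the pseudogene HSPA7, which shares sequence with HSPA6 and had 2, 0 and 0 counts unexposed and 11, 10 and 14 after ABS, and the ER chaperones HSPA5 (1.04 ± 0.07) and HYOU1 (0.38 ± 0.09). Of 17 further cochaperones 1 rose, DNAJB2 (0.83 ± 0.10). In OE33 shControl cells 2 of 22 tested HSF1-responsive genes rose, with HSPB8, the small heat shock partner of BAG3, changing most (0.70 ± 0.12), and 5 fell, among them HSPA1L (-0.63 ± 0.13), DNAJB4 (-0.61 ± 0.18) and HSPA4L (-0.40 ± 0.11). No heat shock factor or regulator was called there either (0 of 5 by edgeR, at an unadjusted p under 0.05 and by DESeq2), with HSF1 at 0.10 ± 0.09 and HSBP1 at -0.10 ± 0.10. The ER chaperones HSPA5 (1.06 ± 0.06) and HYOU1 (0.78 ± 0.06) rose in OE33 as well, and they were the only ones called of 8 tested in their list. HSPA5 and HYOU1 thus rose in both lines, whereas HSPA1A, HSPA1B and HSPA6 rose in FLO1 and fell in OE33. The difference between lines in the ABS change was 0.01 ± 0.09 for HSPA5 and was not called. Of the 17 further cochaperones DNAJB2 rose in OE33 (0.39 ± 0.10) and FKBP5 (-0.42 ± 0.09) and BAG2 (-0.31 ± 0.09) fell, and of the TRiC subunits CCT4 fell (-0.22 ± 0.07).

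Outside these lists, the 6 genes whose levels followed the sum of HSPA1A and HSPA1B most closely over the 36 libraries, once each line's mean was removed, were EGR1 (Pearson r = 0.92), FICD (0.91), HERPUD1 (0.91), DNAJB9 (0.90), FOS (0.90) and EIF2AK3 (0.90), of 10449 genes ranked. EGR1 and FOS are immediate early transcription factors, and FICD, HERPUD1, DNAJB9 and EIF2AK3 act in the stress response of the ER. The libraries share the exposed and unexposed groups, so this is a description with no test. EGR1 changed by 1.85 on the log2 scale after ABS in FLO1 shControl cells and by -0.19 in OE33, FICD by 1.09 and -0.08, HERPUD1 by 1.35 and -0.02, DNAJB9 by 1.36 and -0.36, FOS by 2.03 and 0.36, and EIF2AK3 by 0.96 and 0.02. FOS thus had a positive value in OE33, where HSPA1A and HSPA1B fell.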

How the data were processed

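Raw gene counts were deposited by the authors as 1 table of 36 columns. Per the submitters' processing notes, Trimmomatic 0.36, STAR 2.5.2b, featureCounts of Subread 1.5.2 and GRCh38 were used; the sources used here do not give the annotation release, the strand setting or the treatment of reads with several matches. Gene IDs were matched to GENCODE 29 symbols (56898 of 57500). Counts were fitted with edgeR 4.0.16 (R 4.3.3): TMM normalization, filterByExpr, robust quasi-likelihood tests with 1 coefficient per group, per line (18 libraries) or for both lines (36), and Benjamini-Hochberg adjustment over all genes, called at 0.05. CPM is per total count of the library, and levels per kb used merged exon length. The test was tried on simulated counts with known changes. Alternatives were DESeq2 1.42.0, RLE normalization, no filter, a replicate block, HSPA1A and HSPA1B summed, only the groups compared, each library left out, and a G+C correction chosen after seeing the data. The members and lists were chosen with earlier results of these data known. All 10 genes are named in every comparison; of each list, up to 4 called genes with the largest ABS change in shControl cells of a line, or the 2 most abundant where none was called (1 called gene is not reported here); and the 6 genes most alike to HSPA1A plus HSPA1B (log2 CPM with a prior count of 2, mean of at least 1 in each line).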

Additional observations from a re-analysis of the deposited data

Results flagged for a closer look

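The log2 change after ABS was compared between OE33 and FLO1, and the test of that difference passed for 20 pairs of a gene and an shRNA, each lower in OE33. In shControl cells the differences, OE33 minus FLO1, were HSPA6 (-5.53), HSPA1A (-3.29), HSPA1B (-3.20), DNAJB1 (-2.25), DNAJB5 (-1.90), BAG3 (-1.46) and HSPH1 (-1.24). In shAPE1#1 cells they were HSPA6 (-3.17), HSPA1A (-2.07), HSPA1B (-2.21), DNAJB1 (-1.42), DNAJB5 (-0.89), BAG3 (-0.67) and HSPH1 (-0.87). In shAPE1#3 cells they were HSPA6 (-4.35), HSPA1A (-2.20), HSPA1B (-2.09), DNAJB1 (-1.67), BAG3 (-0.88) and HSPH1 (-0.96). The lines also grew in different media, and the part of medium and line in these differences cannot be told apart.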

How the results depend on the processing

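The counts below are of the 10 genes called. With DESeq2 and with no filter alike, the FLO1 interaction gave 5 for shAPE1#1 and 1 for shAPE1#3, and the OE33 interaction with shAPE1#3 gave 1, each against 0. The G+C correction gave 6 against 2 for shAPE1#1 and 1 against 0 for shAPE1#3 in unexposed FLO1, 7 against 3 for shAPE1#3 after ABS in FLO1, and 5 and 1 against 0 for the FLO1 interactions. In OE33 it gave 4 against 2 for ABS in shAPE1#3, 7 against 4 for shAPE1#1 unexposed, 1 and 2 against 0 for shAPE1#1 and shAPE1#3 after ABS, and 1 against 0 for the shAPE1#3 interaction. A fit of only the groups compared gave 5 against 2 for shAPE1#1 in unexposed FLO1, 2 against 4 and 0 against 3 for shAPE1#1 and shAPE1#3 after ABS in FLO1, 1 against 4 and 4 against 2 for ABS in OE33 shAPE1#1 and shAPE1#3, and 1 against 0 for shAPE1#3 after ABS and for its interaction in OE33. Leaving out 1 library gave 0 to 3 for the FLO1 shAPE1#1 interaction, 2 to 5 for shAPE1#3 after ABS in FLO1, 3 to 4 for shAPE1#3 in unexposed OE33, 2 to 3 for ABS in OE33 shAPE1#1 and 1 to 2 for ABS in OE33 shAPE1#3. The calls over all genes moved as well: with the G+C correction to 2943 from 1137 for shAPE1#1 and to 572 from 133 for shAPE1#3 in unexposed FLO1, and to 589 from 132 for shAPE1#3 after ABS in FLO1. Over all genes, leaving out 1 library gave 287 to 923 calls against 506 for ABS in FLO1 shControl. The cause was not tested. The replicate block left 8 members called for ABS in FLO1 shControl and 6 in OE33 shControl, and moved no count by over 1.5 times; same-numbered libraries correlated from -0.735 to 0.359, with 7 of 18 pairs above 0.1. All 3 pairs were above 0.1 in OE33 shAPE1#3 alone (0.104 to 0.359), where the block left the same 2 members called after ABS; in the other 5 sets the numbers were not taken to pair libraries. It ended the calls of HSPA8 (ABS in FLO1 shAPE1#1, adjusted p = 0.062), HSPH1 (shAPE1#1, unexposed OE33, adjusted p = 0.0501) and DNAJB1 (shAPE1#3, unexposed OE33, adjusted p = 0.0603) beside the calls of HSPA8 and DNAJB5 named above. No log2 change of the 10 genes that was called in both fits changed sign under any alternative. Depth limits HSPA6 in FLO1 and DNAJB5 in OE33 most, which stood near 1 CPM unexposed.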
